A study of Mus musculus with 21 samples.

Results

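Spinal cord RNA from mice that had lost TDP-43 in oligodendrocytes was compared at about postnatal day 60 (P60) with that of heterozygous mice carrying the same Cre, using 6 of the 21 libraries of the series. The 6 libraries were taken by their labels: 3 knockout libraries (cKO, genotype Cnp-Cre; Tardbp-fl/fl) and 3 heterozygous libraries (cHET, genotype Cnp-Cre; Tardbp-fl/+), each from its own numbered mouse, so that p-values measure the spread between mice. All 6 mice were male C57BL/6; the cKO mice were 61, 61 and 64 days old and the cHET mice 65, 63 and 60 days old. Their spinal cord libraries were built using the NEXTflex Rapid Directional RNA-Seq Kit. Another 3 P60 libraries from Cre-free Tardbp-fl/fl controls, labelled female and 74 days old, entered the fit so that the genotypes shared 1 estimate of spread, and their levels are given where useful. The other 12 libraries came from mice of 21 days (P21, 4 per genotype, Illumina TruSeq RNA Sample Prep Kit), of which the 4 cKO and 4 cHET libraries serve to ask whether the P60 difference was the same at the earlier age.

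TDP-43, encoded by Tardbp, is a nuclear RNA-binding protein that controls splicing and RNA stability, and it forms aggregates in amyotrophic lateral sclerosis and frontotemporal dementia. Oligodendrocytes wrap axons of the central nervous system in myelin, a membrane rich in cholesterol, galactolipids and a few abundant proteins. Because plasma cholesterol does not cross the blood-brain barrier, glia make their own: when sterols are low, the transcription factor SREBP-2 turns on the enzymes of the mevalonate and sterol pathway, whereas an excess of oxidised sterols activates LXR, which turns on cholesterol export. When myelin is damaged, microglia take up the debris, switch on a phagocytic and lysosomal programme, and astrocytes become reactive.

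Several features limit the groups as models. Cre was placed in the Cnp locus, so cKO and cHET alike carry a modified Cnp allele, and cHET mice also lack 1 Tardbp allele in the recombined cells; the comparison is between loss of both alleles and loss of 1. The tissue was whole cord, in which fewer cells of a type and less RNA per cell cannot be told apart. Every level below is the authors' normalized scaled reads per base for a gene, and every change is a difference of log2(value + 0.5), cKO minus cHET, which understates the change of low genes. The tissue label was checked on Hox genes of the trunk, of which 13 of 13 listed passed the filter of a value of at least 5 in at least 3 P60 libraries. Of the 10 listed forebrain genes, 7 also passed it, at summed levels of 237 to 292 in cKO and 205 to 220 in cHET libraries. Tardbp itself, measured over all cell types, was 831, 794 and 783 in cKO cords, against 925, 932 and 906 in cHET cords, a change of -0.20 ± 0.06 (SE; limma adjusted p = 0.040). That call was lost without any 1 of the 6 libraries (adjusted p = 0.057 to 0.11), while every cKO value lay below every cHET value. The call was also lost without control 2 (limma adjusted p = 0.058). In the authors' deposited test the q-value of Tardbp was 0.063. Cnp was 10700, 12120 and 11280 in cKO, against 8720, 8892 and 8877 in cHET (0.36 ± 0.06, limma adjusted p = 1.1e-03). The Cre-free controls held 14550, 15470 and 15610, above every cKO and cHET value.

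The deposited values of the 6 libraries had library sums of similar size and gave between 19645 and 20138 genes above 0; the files used here do not give their read depth. Correlation of log2 values across genes was 0.972 to 0.977 among cKO libraries, 0.971 to 0.976 among cHET libraries and 0.943 to 0.954 between them. The mitochondrial genome took 17.8%, 17.9% and 14.6% of the values in cKO and 11.6%, 11.4% and 16.2% in cHET libraries. The third cHET library stood apart from the other 2 in this share and in interferon genes, which are described below. The P60 controls went against their sex label, with the Y-linked gene Ddx3y at 1113, 859 and 905, close to the 886, 1004 and 1056 of cKO and the 969, 975 and 1166 of cHET males; no cKO or cHET value of this comparison rests on that label.

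At P60, 4200 of 16833 tested genes differed between cKO and cHET (25% of tested genes; limma, adjusted p under 0.05), with 2258 higher (13.4%) and 1942 lower (11.5%) in cKO. The higher genes moved further: 874 rose by at least 2-fold, whereas 293 fell by at least 2-fold. At 4-fold the counts were 303 and 74. The median log2 change over all tested genes was 0.0033. Of the called genes, 4154 showed no overlap between the 3 cKO and 3 cHET libraries, a pattern that 39.5% of all tested genes showed. The P60 list counts below stand against the 13.4% higher and 11.5% lower among all tested genes.

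Of the 12 genes that rose most, 5 (Gpnmb, Itgax, Cst7, Clec7a and Lilrb4a) belong to the list of disease-associated microglia. Gpnmb, a lysosomal and membrane glycoprotein of phagocytes (GRCm38 chr6:49036546-49070929), was 4131, 4555 and 2923 in cKO, against 38.4, 79.5 and 62.7 in cHET, a log2 change of 6.03 ± 0.24 (adjusted p = 4.1e-08). Atp6v0d2, a subunit of the proton pump of macrophage and osteoclast lysosomes, was 252, 321 and 259 in cKO, against 0, 2.09 and 3.85 in cHET. Its log2 change was 7.28 ± 0.77 (adjusted p = 4.2e-05), 6.36 without cHET 1 and 7.92 without cHET 3, since it rests on cHET values near 0. For both genes the lowest cKO library lay far above the highest cHET library. Lack of overlap between the groups was itself a condition for naming the 12 genes. Itgax (CD11c, 5.84 ± 0.83), Cst7 (a cysteine protease inhibitor, 5.62 ± 0.38), Clec7a (the receptor dectin-1, 5.53 ± 0.47), Lyz2 (lysozyme, 5.37 ± 0.24) and Ccn5 (a matricellular protein, 5.93 ± 0.53) followed, with adjusted p from 1.0e-07 to 4.0e-04. Lilr4b, Lilrb4a, Ly9, Cd200r4 and Arsi made up the rest of the 12 largest rises, at 5.18 to 5.82. Atp6v0d2, Lilr4b, Cd200r4 and Arsi reached 5 in at least 3 P60 libraries only through their cKO values. Their entry to the test thus depended on the rise described. Lilrb4a and Lilr4b are near-identical neighbours whose reads may have been split between them. Without cHET 1 the log2 change was 5.31 for Ccn5, 4.46 for Lilrb4a and 4.21 for Cd200r4, and without cHET 3 it was 6.55 for Lilr4b and 5.78 for Cd200r4.

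The largest fall was in Nkx2-9, a homeobox gene of the ventral neural tube, which was 1.17, 1.07 and 1.37 in cKO, against 164, 135 and 117 in cHET (log2 change -6.34 ± 0.20, adjusted p = 2.0e-08). Its cKO values were near 0, while controls averaged 125.8 ± 16.3 (SD, n = 3). Klk6, a secreted protease of mature oligodendrocytes (chr7:43824499-43832030), was 146, 238 and 299 in cKO, against 3563, 4131 and 3528 in cHET (-4.09 ± 0.20, adjusted p = 1.6e-07). Anln, a septin-scaffold protein of myelin (chr9:22332012-22389188), was 27.8, 29.6 and 34.1 in cKO, against 448, 602 and 421 in cHET (-3.97 ± 0.14, adjusted p = 2.8e-08). Serpinb1a, an inhibitor of neutrophil proteases, was 18.6, 22.1 and 25.6 in cKO, against 320, 310 and 325 in cHET (-3.83 ± 0.13). Lack of overlap between the groups was a condition for naming these 4 genes, so it adds no support. Pdlim1 (-3.82, and -4.47 without cKO 2) and Tex52 (-3.73) also fell. The other 6 of the 12 lowest, Gm49337, Apoo-ps, Gm15725, Gm19963, Gm1979 and Gm5862, are pseudogenes or unnamed gene models whose counts may be shared with related genes. Apoo-ps (-4.54) was -3.302 without cHET 2, -3.612 without cHET 1 and -6.7002 without cHET 3, and its call was lost without cHET 1, cHET 2, any 1 cKO library or control 3. Gm15725 (-4.03) was -2.21 without cKO 1 and -5.48 without cKO 3, and its call was lost without any 1 of the cHET libraries, cKO 1, cKO 2 or control 3. Gm5862 (-3.14) was -1.98 without cKO 2 and -3.863 without cKO 3, and its call was lost without cHET 2.

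All 20 listed enzymes of cholesterol biosynthesis were lower in cKO cord, against 11.5% of all tested genes, and each of the 20 was lower without overlap between the groups (18.9% of tested genes). Their median log2 change was -1.62, and they lay between -2.13 and -0.48. Summed over the list, cKO libraries held 9796, 10770 and 10720, against 32750, 34680 and 32930 in cHET libraries; controls held 31130 to 31900. Hmgcs1, which makes HMG-CoA (chr13:119690379-119708260), was 2505, 2946 and 2773 in cKO, against 9376, 10730 and 11300 in cHET (-1.93 ± 0.08, adjusted p = 6.0e-08); in the authors' deposited table, whose value for this gene differs from the per-library values, it was -1.91. The highest cKO library lay well below the lowest cHET library, while controls held 9221 ± 310 (SD, n = 3).

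Downstream of mevalonate the fall continued to the last steps. Idi1, the isopentenyl diphosphate isomerase, fell by 1.88, Fdps by 1.70 and Fdft1 (squalene synthase) by 1.93 on the log2 scale, the last at -1.87 in the authors' deposited table. Sqle, the squalene epoxidase and a control point of the pathway (chr15:59315077-59331192), was 670, 663 and 746 in cKO, against 2520, 2680 and 2434 in cHET (-1.88 ± 0.06, adjusted p = 2.4e-08). Msmo1, a sterol C4 demethylating oxidase (chr8:64718139-64733792), had the largest fall of the list, with 477, 526 and 522 in cKO, against 2465, 2224 and 1993 in cHET (-2.13 ± 0.08, adjusted p = 3.0e-08). Sc5d fell by 1.71, Nsdhl by 1.65, Cyp51 by 1.58 and Dhcr7 by 1.47. The smallest falls were those of Tm7sf2 (-0.48, but -1.10 in the authors' deposited table), Pmvk (-0.49), Ebp (-0.69) and Acat2 (-0.79). Lss, with 297, 448 and 522 in cKO, against 1137, 1251 and 826 in cHET, was the most variable (-1.36 ± 0.19).

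The regulators of the pathway did not move together. Insig1, which holds SREBP in the endoplasmic reticulum and is itself an SREBP target, was 484, 437 and 493 in cKO, against 1784, 1838 and 1733 in cHET (-1.92 ± 0.06, adjusted p = 2.0e-08). Stard4, a sterol carrier, fell by 2.01. Neither Scap (-0.19), the escort of SREBP, nor the proteases Mbtps1 (0.10) and Mbtps2 (-0.21), nor Insig2 (-0.18) or Npc1 (-0.05) passed the test. Srebf1, which encodes the fatty-acid-directed SREBP-1 and is an LXR target, went the other way, at 930, 829 and 903 in cKO, against 406, 402 and 414 in cHET (1.12 ± 0.08, adjusted p = 2.2e-06). Npc2, a lysosomal cholesterol carrier, rose by 0.52. Srebf2 has no per-library value here; in the authors' deposited table it was -1.19 on the log2 scale (q = 1.7e-76).

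**Figure D1:**
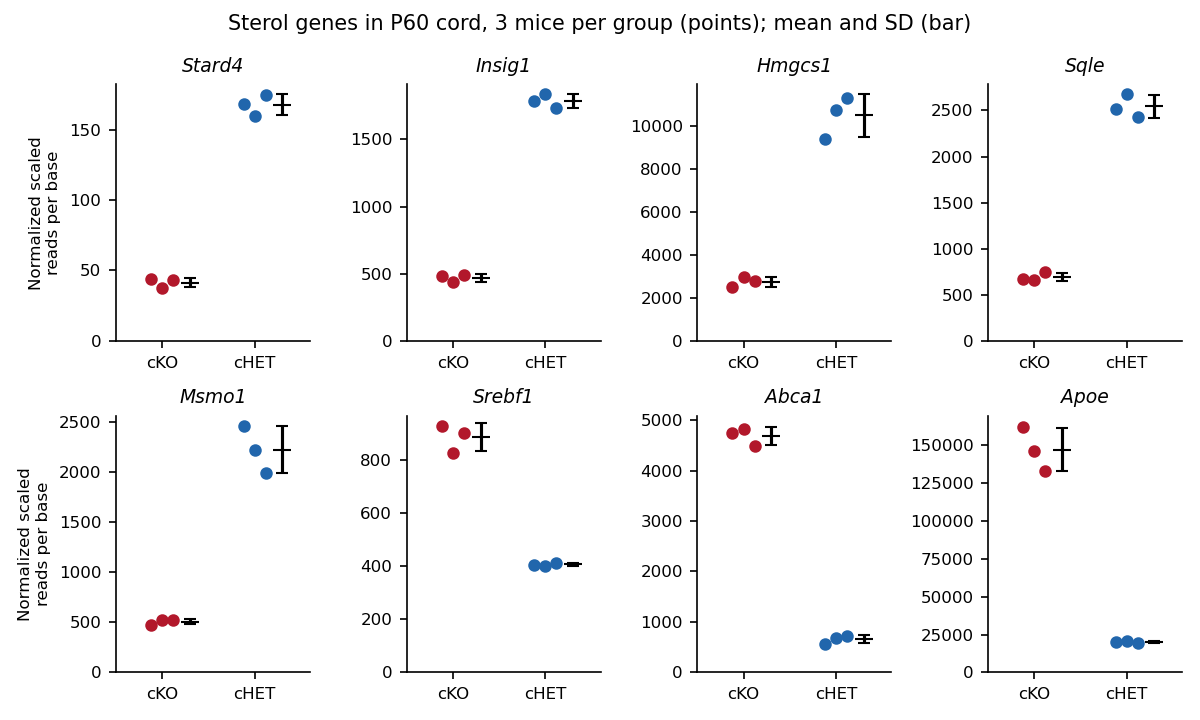
Values of 8 sterol genes in normalized scaled reads per base (vertical axis, linear from 0) in each P60 cKO (left, red) and cHET (right, blue) library, with the mean and SD beside the points. Stard4, Insig1, Hmgcs1, Sqle and Msmo1 were lower, and Srebf1, Abca1 and Apoe higher, in every cKO library than in every cHET library; Apoe was 133200 to 162100 in cKO and 19420 to 20780 in cHET.

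Because these genes moved together, their promoters were read from RefSeq (GRCm38.p6, 250 bases before to 50 bases after the annotated start), which held 15 of the 20 cholesterol genes. In all, 10 spellings of known motifs were searched on both strands of these windows and of the same windows of all genes, and a match is a description of the letters. The CCAAT box, which NF-Y binds and which lies beside SREBP sites in several sterol genes, was spelled CCAAT and found in 14 of the 15 cholesterol genes, against 41.1% of 27025 genes with a window. The longer spelling CCAATC was in 13 of 15, against 18.2%. In fatty acid synthesis genes CCAAT was in 12 of 17 and in myelin genes in 7 of 18. A sterol response element core spelled TCACNCCAC was in 1 of 15 cholesterol genes, Hmgcs1, and in 1.44% of all genes; the shorter CACNCCAC, which it contains, was in 2 of 15, against 7.12%. The windows of Hmgcs1 (chr13:119690101-119690400, plus strand), Msmo1 (chr8:64733529-64733828, minus strand) and Idi1 (chr13:8885356-8885655, plus strand) are shown, 5′ to 3′ on the gene's strand, because they hold the sterol response element core, the largest fall of the list and a pair of CCAAT boxes in an isoprenoid enzyme. Capitals mark CCAAT on either strand (ATTGG on the other) and, in Hmgcs1, also TCACCCCAC, which overlaps no CCAAT there.
Hmgcs1: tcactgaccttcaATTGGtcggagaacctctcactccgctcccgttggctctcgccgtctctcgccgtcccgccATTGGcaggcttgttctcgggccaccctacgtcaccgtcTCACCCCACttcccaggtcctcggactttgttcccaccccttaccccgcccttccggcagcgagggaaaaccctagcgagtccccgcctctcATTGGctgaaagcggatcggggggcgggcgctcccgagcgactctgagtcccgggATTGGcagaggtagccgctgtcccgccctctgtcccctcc
Msmo1: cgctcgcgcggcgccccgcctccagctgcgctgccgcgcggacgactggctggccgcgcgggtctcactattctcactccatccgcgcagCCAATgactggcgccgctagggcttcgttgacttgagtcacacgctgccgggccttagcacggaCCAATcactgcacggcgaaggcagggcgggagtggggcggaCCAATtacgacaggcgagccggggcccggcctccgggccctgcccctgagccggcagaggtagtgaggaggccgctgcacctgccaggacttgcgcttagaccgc
Idi1: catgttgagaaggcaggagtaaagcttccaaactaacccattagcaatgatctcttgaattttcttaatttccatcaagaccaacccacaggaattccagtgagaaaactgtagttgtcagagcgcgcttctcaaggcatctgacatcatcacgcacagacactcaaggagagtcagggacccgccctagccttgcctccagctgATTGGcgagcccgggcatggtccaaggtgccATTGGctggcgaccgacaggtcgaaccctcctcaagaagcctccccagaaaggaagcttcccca

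Genes of fatty acid synthesis moved less. Of 20 tested, 14 fell and 1 rose, with a median of -0.47. Scd1, a stearoyl-CoA desaturase, fell by 1.06 and Acss2, which activates acetate, by 0.89. Scd2, the main desaturase of brain, was 47110, 49650 and 51150 in cKO, against 78090, 81430 and 72500 in cHET (-0.65 ± 0.07, adjusted p = 5.7e-05). Elovl7, an elongase, fell by 0.89, and by 1.13 in the authors' deposited table. Fads2, a desaturase of polyunsaturated fatty acids, was the member that rose (0.32). Of 14 genes for sphingolipids and galactolipids, 3 fell and none rose (11.5% and 13.4% of all tested genes did so): Fa2h, which makes the 2-hydroxy fatty acids of myelin lipids (-1.50), Ugt8a, the galactosylceramide synthase (-0.87), and Gal3st1, which makes sulfatide (-0.33). The other 11 lay between -0.29 and 0.39.

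Genes for the export and carriage of cholesterol rose in the same cords. Of 15 listed efflux and LXR target genes, 8 rose and 1 fell, with a median of 0.77. Apoe, the main lipid carrier of the central nervous system (chr7:19696109-19699188), was 162100, 146000 and 133200 in cKO, against 19830, 20780 and 19420 in cHET (2.87 ± 0.08, adjusted p = 1.1e-08). Abca1, the pump that loads lipid onto ApoE (chr4:53030787-53159895), was 4743, 4832 and 4488 in cKO, against 567, 683 and 728 in cHET (2.84 ± 0.09, adjusted p = 2.4e-08). Neither gene overlapped between the groups, and controls held 17990 ± 985 for Apoe and 574 ± 46.6 for Abca1 (SD, n = 3), close to cHET. Apoc1 (5.08), Apoc4 (4.82) and Apoc2 (4.73), neighbours of Apoe in 1 gene cluster, rose further from low levels. Apoc4 was 641, 537 and 393 in cKO, against 15.5, 21.9 and 16.3 in cHET, and Apoc2 was 4.04 without cHET 1. Mylip, a ubiquitin ligase, rose by 1.69, Abcg1 by 0.63 and Ch25h, the cholesterol 25-hydroxylase, by 2.69. Cyp27a1, the sterol 27-hydroxylase, fell by 1.45. Of 14 tested genes of lipid droplets, 6 rose, with Plin2 (a droplet coat protein, 1.40), Lipa (lysosomal acid lipase, 0.95) and Dgat2 (triglyceride synthesis, 0.94) in front, and 1 fell, the lipase Lipe (-0.79). Plin3, listed with them but absent from the per-library values, was -1.63 in the authors' deposited table.

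Genes of mature oligodendrocytes and myelin fell in most cases, but not as a block. Of 28 tested, 19 fell, 5 rose and 4 did not pass, with a median of -0.65. Mbp, which compacts the membrane, was 206200, 235600 and 240400 in cKO, against 359000, 390400 and 327900 in cHET (-0.66 ± 0.10, adjusted p = 7.9e-04). Its cKO mean was 0.633 times the cHET level, and the groups did not overlap. Mag fell by 0.91, Mog by 0.67 and Mobp by 0.65. Further down were Ermn (a cytoskeletal protein of myelin, -1.72), Qdpr (a pteridine reductase, -1.58), Car2 (carbonic anhydrase, -1.47) and Il33 (an alarmin stored in oligodendrocyte nuclei, -1.12). Myrf, the transcription factor that keeps myelin genes on, fell by 0.44.

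Against that trend Opalin, an oligodendrocyte membrane glycoprotein (chr19:41061710-41077113), was 2165, 2065 and 2351 in cKO, against 710, 643 and 998 in cHET (1.51 ± 0.14, adjusted p = 1.5e-05). Cldn11, the tight-junction protein of myelin, was 15270, 16240 and 14960 in cKO, against 8311, 8792 and 10050 in cHET (0.78 ± 0.07, adjusted p = 1.6e-05). Tspan2 (0.87), Sox10 (the lineage transcription factor, 0.62) and Cryab (0.49) rose as well. For Opalin and Cldn11 the lowest cKO library exceeded the highest cHET library. Among 17 genes of nodes, paranodes and glial gap junctions, 8 fell and 2 rose (11.5% and 13.4% of all tested genes did so). Hapln2, a link protein of the nodal matrix (chr3:88021750-88027583), was 168, 168 and 217 in cKO, against 1597, 1659 and 1346 in cHET (-3.06 ± 0.11, adjusted p = 2.8e-08). Gjb1 (connexin 32, -2.43) and Cntn2 (contactin 2 of the juxtaparanode, -2.05) fell, while Gjc3 (connexin 29) rose by 0.89 and Nfasc by 0.28. Epb41l3 fell by 0.53 in the per-library values and was -0.03 in the authors' deposited table.

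Markers of earlier stages of the lineage rose. Of 10 tested markers of newly formed oligodendrocytes, 8 rose and 2 fell, with a median of 0.96. Gpr17, a receptor that marks premyelinating cells, was 6197, 6414 and 5791 in cKO, against 1474, 1417 and 1775 in cHET (1.99 ± 0.08, adjusted p = 5.0e-08). Bmp4 (1.44), Tcf7l2 (1.06), Neu4 (1.002) and Sirt2 (0.77) rose with it, and Casr rose from low levels (2.54 ± 0.53). Bcas1, another marker of early myelinating cells, fell by 0.94, and Enpp6 by 0.39, a call that was lost without cHET 1, cHET 2, cKO 1 or cKO 2. Bcas1 averaged 4000 in cKO, 5293 in controls and 7650 in cHET. Of 14 tested precursor markers, 12 rose, with a median of 0.69. Cspg4 (NG2, chr9:56865033-56899870) was 1354, 1459 and 1195 in cKO, against 508, 532 and 468 in cHET (1.41 ± 0.09, adjusted p = 8.1e-07). Vcan (1.39), Tnr (1.04), Matn4 (1.11) and Olig1 (0.71) rose, and Pdgfra, the growth factor receptor of precursors, rose by 0.47. Cacng4 fell by 0.51, a call that was lost without cHET 1, cHET 3, cKO 1 or cKO 3. Most markers of myelinating cells were thus lower, and most markers of precursors and newly formed cells higher, in the same libraries.

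**Figure D2:**
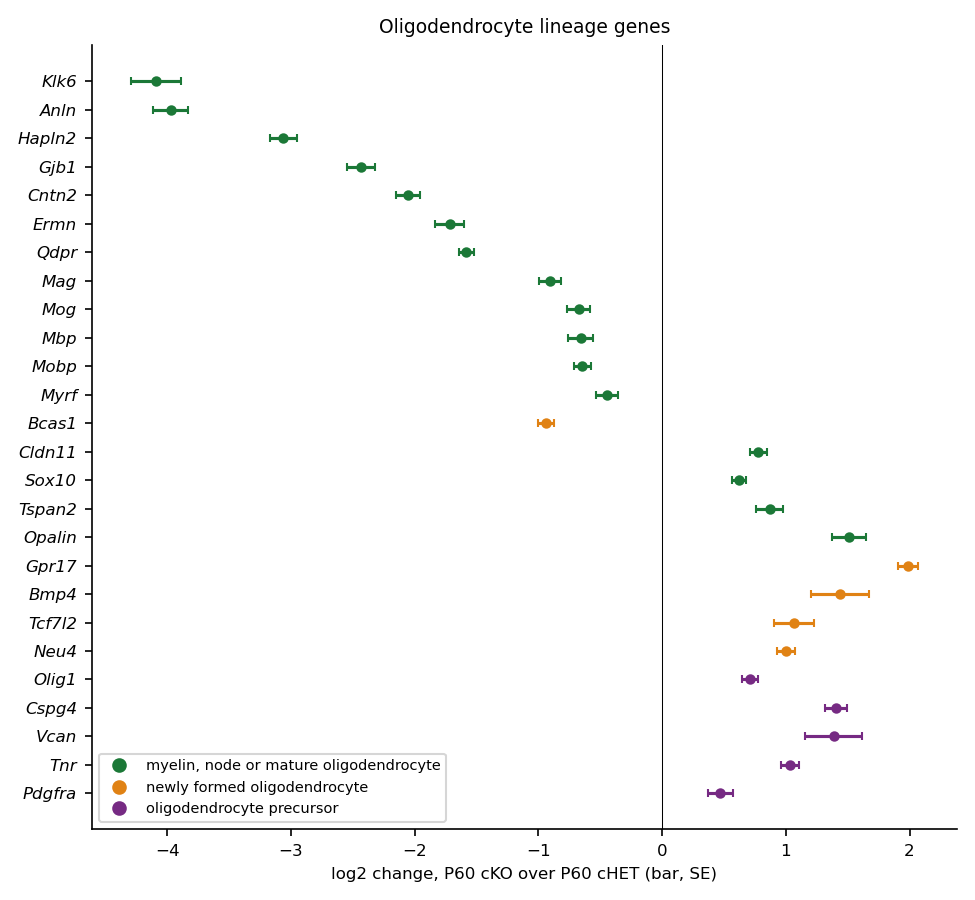
Log2 change, P60 cKO over P60 cHET, with its SE (bar), for 26 named genes of the oligodendrocyte lineage; colours mark the list a gene belongs to. Klk6, Anln and Hapln2 lie below -3, most abundant myelin genes between -1 and 0, and Opalin, Gpr17, Cspg4 and Vcan above 1.

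Markers of peripheral nerve were carried unevenly. Prx, a protein of the Schwann cell sheath, was 15.5, 13 and 13.3 in cKO, against 15.9, 222 and 11.3 in cHET. The second cHET library alone was high. Prx did not pass the test (-1.28). Of 7 tested Schwann cell genes, 2 rose and 1 fell (13.4% and 11.5% of all tested genes did so). The rises were those of Egr2, a transcription factor of peripheral myelination (1.90, adjusted p = 0.029), and Drp2, a dystrophin-related protein (0.28, adjusted p = 0.037). The Egr2 call was lost without cHET 1 or any 1 cKO library, and the Drp2 call without cHET 1, cHET 3, any 1 cKO library or control 2. Pmp22, a myelin protein of peripheral nerve that oligodendrocytes also express, fell by 0.89, with 468, 471 and 570 in cKO, against 854, 1184 and 800 in cHET. Without cHET 2 the change of Prx was 0.05.

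Microglial genes rose widely, while a small set of resting-state markers fell. Of 23 tested genes of disease-associated microglia, 21 rose and 1 fell, with a median of 2.67, the highest of the 42 lists. Trem2, a lipid-sensing receptor (chr17:48346401-48354147), was 1691, 1707 and 1281 in cKO, against 121, 137 and 146 in cHET (3.52 ± 0.13, adjusted p = 3.0e-08). It is not among these 23 and is counted in the homeostatic list below, of which it is the highest rise. Cd68, a phagocyte lysosomal protein, rose by 4.03, Lpl (lipoprotein lipase) by 2.67, Igf1 by 3.56 and Spp1 (osteopontin) by 1.77. Fth1, the ferritin heavy chain, which oligodendrocytes express strongly, fell instead, at 31260, 29950 and 30050 in cKO, against 81920, 76590 and 61070 in cHET (-1.26 ± 0.10, adjusted p = 4.6e-06). Lgals3 lay below the filter in the per-library values and was 4.45 in the authors' deposited table.

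Among 18 genes of homeostatic microglia, 13 rose and 4 fell, with a median of 1.45. The 13 include Trem2 (3.52) and Tyrobp (3.295). Cx3cr1, the fractalkine receptor (chr9:119901616-120069879), was 3036, 2769 and 2634 in cKO, against 913, 882 and 921 in cHET (1.63 ± 0.07, adjusted p = 9.3e-08), and Csf1r, the survival receptor of microglia, rose by 1.41. In contrast P2ry12, the purinergic receptor of resting microglia (chr3:59216272-59262871), was 248, 386 and 238 in cKO, against 645, 552 and 708 in cHET (-1.15 ± 0.16, adjusted p = 3.8e-04). Tmem119, a microglia-specific membrane protein, was 50.3, 63.6 and 38.5 in cKO, against 158, 194 and 160 in cHET (-1.76 ± 0.17, adjusted p = 2.2e-05). Sall1, a transcription factor of microglial identity, fell by 0.42, and Siglech by 0.87. The groups did not overlap for P2ry12, Tmem119, Siglech or Sall1, and the Siglech call (adjusted p = 0.037) was lost without any 1 of the 6 libraries other than cHET 3 (adjusted p = 0.060 to 0.11).

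**Figure D3:**
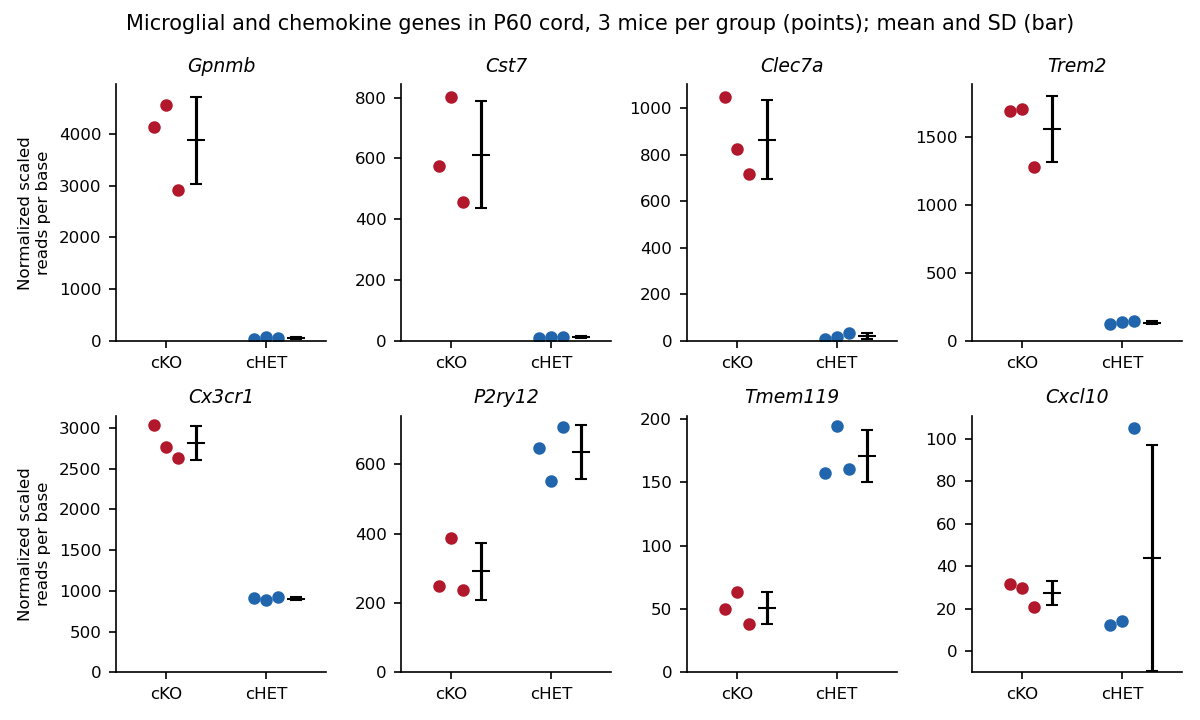
Values of 7 microglial genes and the chemokine Cxcl10 in normalized scaled reads per base (vertical axis, linear) in each P60 cKO (left, red) and cHET (right, blue) library, with the mean and SD beside the points. Gpnmb, Cst7, Clec7a, Trem2 and Cx3cr1 were higher and P2ry12 and Tmem119 lower in every cKO library, whereas for Cxcl10 the highest value of all, 105, was that of the third cHET library.

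Genes of complement and of immune receptors rose as well. Of 17 complement genes, 13 rose and none fell. C1qa, of the recognition complex C1q, was 5640, 5612 and 3715 in cKO, against 637, 655 and 660 in cHET (2.91 ± 0.14, adjusted p = 1.4e-07). C4b rose by 2.15, C3 by 2.22 and the receptor C3ar1 by 3.71. C3 is also counted in the list of reactive astrocytes. Of 18 Fc, scavenger and pattern receptors, 13 rose and none fell, including Fcgr2b (4.14), Tlr7 (3.01) and Cd14 (2.46). Chemokines were mixed, with 5 of 12 higher (13.4% of all tested genes were), whereas 7 of 12 did not pass. Ccl3 rose by 4.51 (3.53 without cHET 1), Ccl6 by 3.50, Cxcl16 by 2.68 and Ccl4 by 3.64. Ccl4 reached the filter only through its cKO values. The median of the 12 was 0.05, and 0.65 without cHET 3. Of 16 cytokines and growth factors 7 rose, among them Cntf (2.33), Tgfb1 (1.85) and Il1a (1.71), and Fgf1 fell by 0.37. Tnf, Il6 and Il10 were below the filter in the P60 libraries.

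Of 25 lysosomal hydrolases and membrane proteins, 19 rose and 1 fell, with a median of 0.88. Grn, the gene for progranulin, which is mutated in frontotemporal dementia, was 1373, 1575 and 1148 in cKO, against 322, 334 and 357 in cHET (2.004 ± 0.12, adjusted p = 5.8e-07). Laptm5 (2.12) and Ctsh (2.38) rose, and the aspartic protease Ctsd of the microglial list, at 35980, 40690 and 25840 in cKO, against 7411, 7782 and 6916 in cHET, rose by 2.19. Ctsk, a collagen-degrading cathepsin, fell by 1.01. The proton pump subunits Atp6v0d1 (0.06) and Atp6v1a (-0.17) and the channel Mcoln1 (-0.04), which occur in most cells, did not pass. Of 19 listed genes with a RefSeq promoter window, 5 held the E-box of the lysosomal CLEAR motif spelled TCACGTGA, against 1.12% of 27025 genes. Of these 5, Ctsa (1.18, and 1.17 in the authors' deposited table) and Cln3 (0.88) rose, and Mcoln1, Atp6v0d1 and Atp6v1a did not pass. The windows of Ctsd (chr7:142387778-142388077, minus strand) and Cln3 (chr7:126583187-126583486, minus strand, 1 of its 2 windows) are shown as genes that rose and hold the E-box, Cln3 from these 5 and Ctsd from the list of disease-associated microglia, in which 1 of 19 genes with a window holds it, with TCACGTGA, which reads the same on both strands, in capitals.
Ctsd: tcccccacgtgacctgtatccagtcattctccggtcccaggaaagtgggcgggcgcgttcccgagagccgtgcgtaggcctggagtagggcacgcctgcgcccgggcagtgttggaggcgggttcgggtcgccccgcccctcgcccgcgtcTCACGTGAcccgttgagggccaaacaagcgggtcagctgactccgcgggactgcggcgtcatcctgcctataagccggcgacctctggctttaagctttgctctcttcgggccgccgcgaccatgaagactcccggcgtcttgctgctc
Cln3: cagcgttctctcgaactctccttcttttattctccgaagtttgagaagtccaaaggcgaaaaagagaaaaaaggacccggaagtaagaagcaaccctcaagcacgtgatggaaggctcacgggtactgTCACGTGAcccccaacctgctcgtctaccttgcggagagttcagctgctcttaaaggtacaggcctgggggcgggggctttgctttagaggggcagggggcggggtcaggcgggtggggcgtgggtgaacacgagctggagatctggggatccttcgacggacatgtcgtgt

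Genes listed for reactive astrocytes rose in whole cord, with modest changes in general astrocyte markers. Of 22 genes of reactive astrocytes, 19 rose and none fell, with a median of 1.81. Gfap, the intermediate filament of astrocytes, was 103900, 110600 and 86380 in cKO, against 34380, 38710 and 32440 in cHET (1.51 ± 0.10, adjusted p = 1.2e-06). Serpina3n, an acute-phase protease inhibitor (chr12:104406729-104414329), was 14320, 15190 and 13600 in cKO, against 1143, 1302 and 1166 in cHET (3.58 ± 0.09, adjusted p = 8.5e-09). Vim rose by 3.02, Cd109 by 3.42 and Cd44 by 1.78; Lcn2 (0.14), Gbp2 (0.65) and Fbln5 (0.18) did not pass. Of 15 general astrocyte markers 4 rose (13.4% of all tested genes did), namely Aqp4 (0.77), Sox9 (0.78), Slc1a3 (0.50) and Mlc1 (0.44). Another 10 did not pass, with Slc1a2 at -0.06. Glul, the glutamine synthetase of astrocytes and of spinal oligodendrocytes, fell by 0.91, at 3660, 3682 and 3757 in cKO, against 7169, 7527 and 6272 in cHET.

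**Figure D4:**
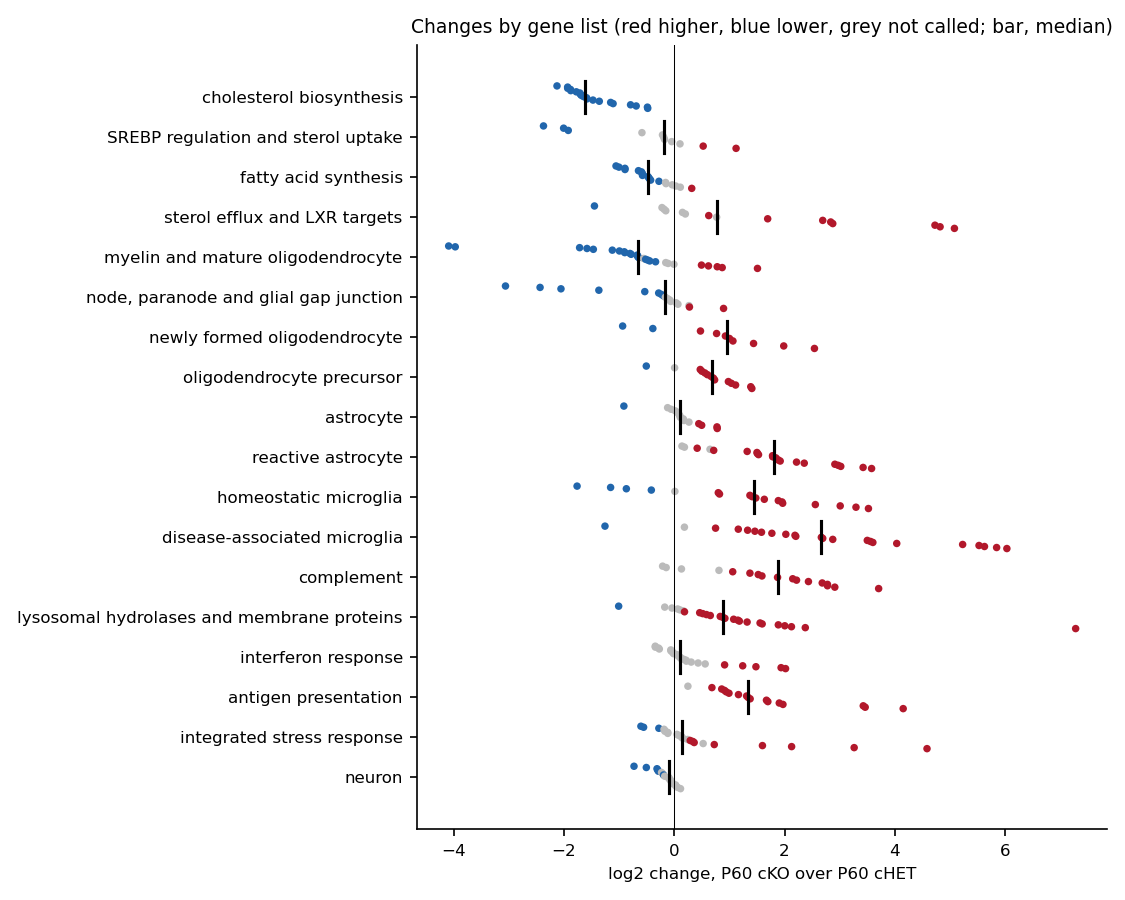
Log2 change, P60 cKO over P60 cHET (horizontal axis), of every tested gene in 18 lists, each point 1 gene and each black bar the list's median; red genes passed the test as higher, blue as lower, grey did not pass. Medians run between -1.62 for cholesterol biosynthesis and 2.67 for disease-associated microglia.

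In interferon-induced genes the third cHET library stood apart. Of 25 tested, 5 rose (13.4% of all tested genes did) and none fell at P60, with a median of 0.11. The 5 were Ifi204 (2.02), Lgals3bp (1.94), Bst2 (1.48), Oas1a (1.24) and Ifih1 (0.91). The call was lost for Oas1a without cHET 2 or cKO 1 and for Ifih1 without cHET 1 or cKO 2. Summed over the list, values were 4339, 4171 and 3677 in cKO, against 2530, 2672 and 4624 in cHET, while the 3 controls held 2576, 2760 and 2484. The third cHET library was thus above every cKO library, and it had the highest cHET value for 23 of the 25 genes. Ifit1, a translation inhibitor induced by interferon, was 134, 98.4 and 100 in cKO, against 77.9, 122 and 285 in cHET (-0.34, adjusted p = 0.56); the highest value was that of cHET 3. Cxcl10, an interferon-induced chemokine, was 31.6, 29.7 and 21.0 in cKO, against 12.4, 14.4 and 105 in cHET (0.01 ± 0.83). Without cHET 3, 8 of 25 interferon genes rose and the median was 0.40. Why that library stood apart was not tested.

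Genes of antigen presentation were higher in cKO with and without that library. Of 17 tested, 16 rose, with a median of 1.34, and 15 rose without cHET 3 (median 1.40). Cd74, the invariant chain of MHC class II, was 718, 637 and 604 in cKO, against 32.6, 41.6 and 35.0 in cHET (4.15 ± 0.32, adjusted p = 3.5e-06). The class II chains H2-Ab1 (3.46, and 4.05 without cHET 3), H2-Aa (3.43) and H2-Eb1 (1.97) rose with it, as did B2m (1.67), H2-D1 (1.31) and H2-K1 (1.38) of class I. H2-D1, H2-K1, H2-Q4 and H2-Q7 are close relatives whose reads may have been split between them. Of 16 listed genes of other blood leukocytes, 9 were below the filter (among them Cd3d, Cd3g, Cd79b, Ly6g, S100a8, S100a9, Nkg7 and Ncr1) and 1 of the 7 tested rose, Ptprc (CD45, 2.85), which microglia also express. The summed leukocyte list ran at 655 to 773 in cKO, against 122 to 164 in cHET, most of it Ptprc.

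Stress and cell death genes moved in both directions. Of 23 tested genes of the integrated stress response, 8 rose and 3 fell (13.4% and 11.5% of all tested genes did so), with a median of 0.14. Atf3, a stress-induced transcription factor, was 329, 349 and 405 in cKO, against 60.7, 44.1 and 18.9 in cHET (3.26 ± 0.33, adjusted p = 3.0e-05). Gdf15, a stress hormone, was 31.1, 24.4 and 23.1 in cKO, against 0, 1.10 and 1.19 in cHET (4.58 ± 0.69), and Nupr1 (2.13) and Cebpb (1.60) rose. No cHET value of Gdf15 reached the filter value of 5, and its change ran between 2.43 and 5.97 in refits. Ddit3 (CHOP, 0.24), Asns (-0.12) and Chac1 (0.16), classical targets of ATF4, did not pass, and the serine synthesis enzymes Psat1 (-0.60) and Phgdh (-0.28) fell, the call of Phgdh being lost without any 1 of 6 libraries (cHET 2, cHET 3, cKO 1, cKO 2, cKO 3 or control 2). Without cHET 3 or cKO 2, 5 of the 23 rose. Of 15 endoplasmic reticulum chaperones 4 rose by small amounts, against 13.4% of all tested genes. They include Hspa5 (0.27) and Calr (0.27), whose calls were lost without cHET 1, cHET 3, cKO 1 or cKO 2. Without cHET 1, cKO 1 or cKO 2, the chaperones that rose were 2 of the 15. Necroptosis and pyroptosis genes rose in 6 of 10 (13.4% of all tested genes did), for example Casp1 (1.71), Casp8 (1.23) and Tnfrsf1a (1.12). Mlkl, the executioner of necroptosis, was -0.08. Gsdmd, listed with it but absent from the per-library values, was 1.42 in the authors' deposited table. Of 16 p53 targets 6 rose (13.4% of all tested genes did), among them Phlda3 (0.64) and Eda2r (2.01). Cdkn1a, absent from the per-library values, was 1.36 in the authors' deposited table. Among 13 genes of NRF2 and iron, Hmox1 (1.68), Steap3 (1.58) and the ferritin light chain Ftl1 (1.46) rose while Fth1 and Heph (-0.40) fell; 6 rose in all, and 3 without cHET 2 or without cKO 3. Of 17 proliferation genes 8 rose, such as Mki67 (114, 196 and 126 in cKO, against 19.7, 41.9 and 60.4 in cHET; 1.92 ± 0.37), and none fell.

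Neuronal genes fell in 6 of 19 tested (11.5% of all tested genes fell) and none rose, with a median of -0.10; 9 of the 19 were lower without overlap between the groups (18.9% of all tested genes). The summed list was 194900 to 225000 in cKO and 212000 to 226400 in cHET libraries. Gad1, the GABA-synthesising enzyme, was 1405, 1270 and 1081 in cKO, against 2118, 2011 and 2067 in cHET (-0.73 ± 0.12, adjusted p = 8.0e-04), and Syt1, the calcium sensor of vesicle release, fell by 0.51. The neurofilament genes Nefl (-0.10), Nefm (-0.04) and Nefh (-0.06) did not pass. Of 6 tested motor neuron genes, 1 rose: Calca, the gene for CGRP, at 413, 315 and 633 in cKO, against 193, 224 and 195 in cHET (1.09 ± 0.20, adjusted p = 2.0e-03). Calca was 342, 388 and 378 in controls, within the cKO range and above every cHET value. Chat, Slc5a7 and Prph are absent from the per-library values; they were -0.06, 0.37 and 0.03 in the authors' deposited table. Among 21 genes mutated or implicated in amyotrophic lateral sclerosis and frontotemporal dementia, 3 rose (Grn, Pfn1 and Sqstm1), against 13.4% of all tested genes, and 6 fell, against 11.5%, including Unc13a (-0.56), a synaptic gene whose human transcript is mis-spliced when TDP-43 is lost; 3 fell without cHET 2 or without cKO 2. Hnrnpa1 fell by 0.44 in the per-library values but was 0.24 in the authors' deposited table, so its direction is uncertain.

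Markers of other cell types of the cord are given against the 25% of all tested genes that passed in either direction. In the vessel list (endothelial and mural cells, 15 tested) Tagln (1.11), Kcnj8 (0.52) and Vwf (0.40) rose, and Kdr (-0.35) and Abcc9 (-0.25) fell. Both falls were lost without cHET 1, cKO 1 or cKO 2, that of Abcc9 also without cHET 2, and that of Kdr also without cHET 3, cKO 3, control 1 or control 3. Of 9 meningeal fibroblast genes 1 passed, Fmod, a small proteoglycan (1489, 1497 and 1174 in cKO, against 110, 149 and 111 in cHET, a log2 change of 3.49 ± 0.16), whereas Col1a1 (0.36), Dcn (-0.51) and Lum (-0.30) did not. Of 10 ependymal genes Mia (1.61) and Cfap126 (0.69) rose, the Cfap126 call being lost without cHET 3, cKO 2 or cKO 3, and Ccdc153 (-0.96) and Tmem212 (-1.51) fell. Ccdc153 averaged 58.25 in cKO, 65.74 in controls and 112.5 in cHET. Of 13 Hox genes 5 fell, such as Hoxb8 (-0.69) and Hoxb9 (-0.70). Of 7 tested forebrain genes 2 rose, and 1 without cHET 1, cHET 2, cKO 1 or cKO 3. Immediate early genes rose in 7 of 10, with Fos at 1.19, Junb at 1.17 and Jun at 0.75, and Arc fell (-0.23), a call lost without any 1 of 7 of the 9 libraries. No mitochondrially encoded gene of 13 passed (median 0.53), and 4 did without cHET 3. Of 74 tested genes of the cytosolic ribosome 21 rose and none fell, with a median of 0.18, and 33 rose without cHET 1.

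Whether the P60 difference was the same at P21 was tested as the interaction of genotype and age in all 21 libraries. The kit, the sexes and the age differ together between the sets of libraries and cannot be told apart. Of 16570 genes, 530 (3.2%) differed, 247 (1.49%) with a higher and 283 (1.71%) with a lower cKO minus cHET change at P60. Of the genes that rose at P60 and were tested at both ages, 1479 of 2246 (65.8%) had also risen at P21, which is 66.7% of the 2216 risen there. Of those that fell, 976 of 1935 (50.4%) had fallen at P21, which is 55.3% of 1766. Over all genes tested at P21, 12.6% had risen and 9.97% had fallen.

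The cholesterol enzymes were lower at both ages and further down at P60, with a median of -1.62 at P60 and -0.82 at P21. For 11 of the 20 the difference itself passed (3.2% of tested genes did). Insig1 was at -1.92 at P60 and -0.56 at P21, and Fdft1 at -1.93 and -0.62. Abca1 (2.84 at P60, 1.65 at P21), Apoe (2.87 and 1.72) and Srebf1 (1.12 and 0.36) were further up at P60, with the difference passing for each. Lss (-1.36 and -1.28) and Tm7sf2 were among the 9 whose difference did not pass.

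In the myelin list 18 of 28 age differences passed, against 3.2% of all tested genes. Anln was at -3.97 at P60 and -1.71 at P21 (difference -2.26 ± 0.17, adjusted p = 6.8e-08), Mag at -0.91 and -0.21, Il33 at -1.12 and -0.04, and Opalin at 1.51 and 0.33. Klk6, at -4.09 and -3.78, did not differ by this test (difference -0.31, adjusted p = 0.75). Hapln2 was at -3.06 at P60 and -1.21 at P21 (difference -1.85, adjusted p = 1.6e-08). The microglial markers Tmem119 (-1.76 at P60, -0.39 at P21) and Siglech (-0.87 and 0.62) were lower at P60 relative to P21, and the difference passed for both.

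Some of the most significant age differences lay in genes that moved at P60 in a direction not seen at P21. Ngfr, the p75 neurotrophin receptor, was 353, 460 and 402 in cKO at P60, against 76.6, 99.3 and 90.5 in cHET (2.18 ± 0.14); at P21 it was 76.0, 77.6, 83.3 and 81.9 in cKO, against 102, 96.7, 95.4 and 119 in cHET (-0.37). Syt4, a vesicle protein, was 7156, 7152 and 7141 in cKO at P60, against 2429, 2549 and 2825 in cHET (1.46 ± 0.08), and at P21 it was 4158, 4101, 4523 and 4113 in cKO, against 5255, 4802, 5411 and 5647 in cHET (-0.32). Both genes were thus higher in cKO at P60 and lower in cKO at P21. Cyp26b1, which degrades retinoic acid, was 607, 543 and 536 in cKO at P60, against 51.5, 59.3 and 70.2 in cHET (3.22 ± 0.16), a change that was 0.44 at P21. Mcam (1.51 at P60, 0.49 at P21), Col27a1 (1.66 and 0.37) and Ccdc187 (-2.38 and -0.37; -2.46 at P60 in the authors' deposited table) complete the 8 genes with the smallest p of the age difference.

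Interferon genes went the other way in age. At P21, 22 of 25 had risen (12.6% of tested genes had), with a median of 1.48, against 5 of 25 and 0.11 at P60. The change was smaller at P60 than at P21 for each of the 25, but the difference passed for 1, Stat2 (-0.34 at P60, 0.30 at P21; adjusted p = 0.038), and for none without cHET 3. Summed at P21 the list was 8314, 17150, 18900 and 8792 in cKO, against 4773, 4598, 6452 and 5315 in cHET; the 2 higher cKO libraries were those of males and the 2 lower those of females. All P60 libraries of the comparison were from males. Reactive astrocyte genes, by contrast, had medians of 1.81 at P60 and 1.57 at P21, and disease-associated microglia genes 2.67 and 2.61. The age difference passed for 1 of 22 and 3 of 23 of these genes. Over all tested genes it passed for 3.2%.

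**Figure D5:**
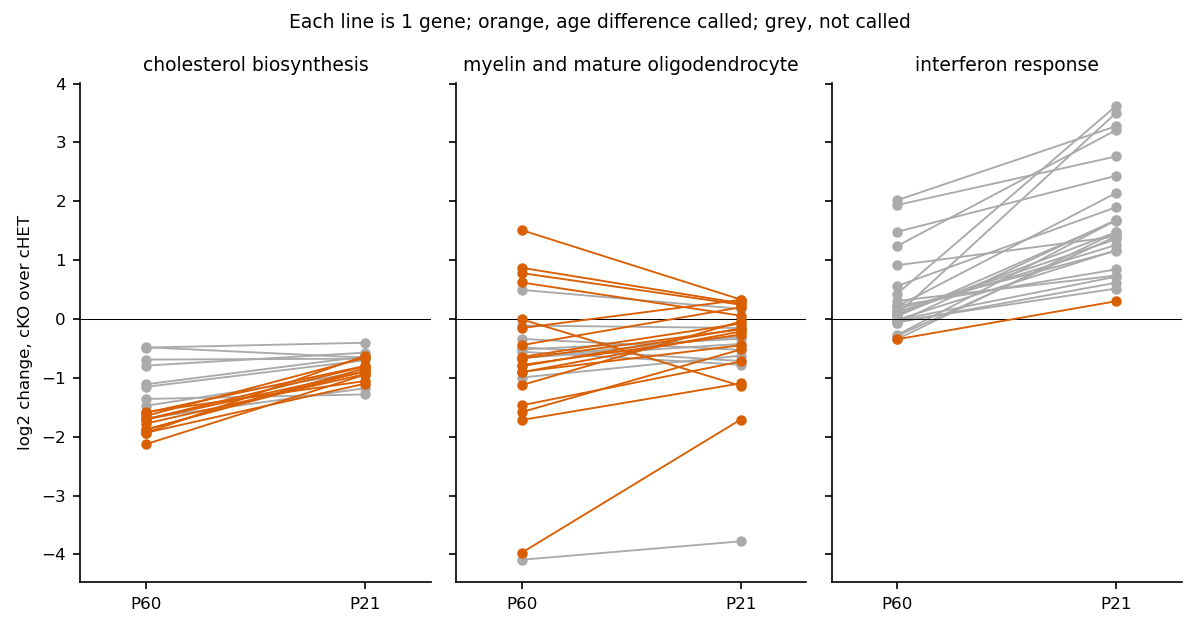
Log2 change, cKO over cHET (vertical axis), at P60 (left) and P21 (right) for genes of cholesterol biosynthesis, myelin and the interferon response; each line is 1 gene, orange where the age difference passed the test. Cholesterol genes lie lower at P60 (median -1.62, against -0.82 at P21), and myelin genes fan out at P60. Interferon genes have a median of 0.11 at P60 (0.40 without cHET 3), against 1.48 at P21.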

How the data were processed

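Whole spinal cord RNA was sequenced in 21 libraries. Per the submitters' processing notes, kallisto 0.43.0 and sleuth 0.28.1 were used with GRCm38; the annotation is not given in the sources used here. The authors deposited a signal per gene and library, normalized scaled reads per base, and, per the file headers, a table per comparison with p-values and q-values and an effect on the natural log scale. Effects from it are given as log2. Of its 16928 genes, 871 differ from the per-library values and 689 are absent there; 82.4% of these lie on chromosomes 13 to 17, so the authors' value is given beside such genes. Depth is unknown.

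From the deposited signal, log2(value + 0.5) was fitted with limma 3.58.1 (trend, R 4.3.3) for genes reaching 5 in at least 3 P60 libraries. The 9 P60 libraries formed 3 groups sharing 1 spread, with Benjamini-Hochberg adjustment over 16833 genes. The age difference was fitted on 21 libraries over 16570 genes. Of 25127 genes, 24877 were named from GENCODE M21, which also gave the coordinates (GRCm38). On simulated data with normal noise, 58, 70 and 72 of the 16833 genes were changed by 0.5, 1 and 2 log2 units. Of these, 36.2%, 70.0% and 83.3% were recovered at P60. Far fewer genes were changed there than the 25% called in the real data, which makes the adjustment stricter. These rates therefore do not measure recovery in the real comparison.

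Named genes were Tardbp and Cnp, the 12 called genes at each end of the log2 changes that had a symbol, did not overlap and averaged 20 or more in the higher group, up to 4 called members of smallest p per list, all sterol genes and the 8 smallest p of the age difference. A few genes that entered the fits and lists are not reported here by name. Other genes were named after their values were seen, and the members and lists were chosen with earlier results of these data known. Alternatives changed the pseudocount, filter, scaling, libraries, weights, moderation and test.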

Additional observations from a re-analysis of the deposited data

Results flagged for a closer look

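The 73 genes given here changed differently between the ages by the test of that difference (limma, adjusted p under 0.05). Each value is the P60 change minus the P21 change, cKO minus cHET on the log2 scale, so a negative value means a lower change at P60. Library kit and sex balance differ with age and cannot be told apart from it. Among enzymes of cholesterol synthesis, the difference was -1.18 for Msmo1, -1.31 for Fdft1, -0.83 for Hmgcs1, -1.04 for Idi1 and -0.997 for Sqle. In the same pathway, it was -0.82 for Sc5d, -0.90 for Fdps, -0.99 for Nsdhl, -0.79 for Mvd and -0.53 for Cyp51. Among regulators of sterol uptake and export, the values were -1.31 for Stard4, -1.36 for Insig1, 0.76 for Srebf1, 1.19 for Abca1, 1.16 for Apoe, 2.12 for Apoc1, 2.20 for Apoc4 and 0.39 for Abcg1. Among other lipid genes, the difference was -0.59 for Fa2h, 0.62 for Lipa, -0.49 for Lipe and 1.07 for Dgat2. Among myelin genes with a lower change at P60, it was -2.26 for Anln, -0.62 for Ermn, -1.06 for Qdpr, -0.74 for Car2, -1.08 for Il33, -0.69 for Mag, -0.50 for Mog, -0.57 for Mobp and -0.64 for Myrf. Among myelin genes with a higher change at P60, the values were 1.18 for Opalin, 0.54 for Cldn11, 0.56 for Sox10 and 0.60 for Tspan2.

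At nodes and gap junctions, the difference was -1.85 for Hapln2, -0.99 for Gjb1, -1.14 for Cntn2 and 0.55 for Gjc3. Among markers of newly formed oligodendrocytes and precursors, the values were 1.36 for Gpr17, -0.75 for Bcas1, 0.61 for Neu4, 1.47 for Bmp4 and 0.70 for Lhfpl3. Among microglial and immune genes, the difference was -1.37 for Tmem119, -0.73 for P2ry12, -1.49 for Siglech, -0.29 for Sall1, 0.89 for Cd9, -0.92 for Fth1, 1.02 for Cntf, 1.70 for Cd74, -1.23 for H2-Q4 and -0.65 for Stat2. Among astrocyte, stress, iron and motor neuron genes, it was -0.81 for Glul, 0.66 for Cd44, -0.40 for Psat1, 0.62 for Phlda3, 1.20 for Steap3, 0.94 for Tfrc and 1.41 for Calca. Among the genes with the largest changes or the smallest age p, the values were -1.84 for Nkx2-9, -2.07 for Serpinb1a, -2.38 for Pdlim1, -1.64 for Tex52, -3.40 for Gm19963 and -3.69 for Gm1979. In the same set, the difference was 1.78 for Syt4, 2.55 for Ngfr, 2.78 for Cyp26b1, 1.02 for Mcam, 1.29 for Col27a1 and -2.01 for Ccdc187. Beyond the per-library values, 197 genes without such values had a q under 0.05 in the authors' deposited table at P60, 111 higher and 86 lower in cKO. They include Nckap1l, a cytoskeletal regulator of blood cells (2.30), and Emilin2, a matrix glycoprotein (-2.40), both named after their values were seen.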

How the results depend on the processing

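The comparison was refitted with other pseudocounts, filters, scalings, library sets, weights and moderation and without each P60 library in turn. Of the refitted values for named genes at P60, 5728 kept direction and call status, 146 lost the call, 8 gained it and 12 changed sign; of the list counts, 1804 stayed within 1.5 times and 128 did not; of the age differences of named genes, 96 of 96 kept direction and call. With a mean of at least 50 required, 521 genes rose by at least 2-fold, against 874, since fewer genes were tested. Without 1 library each, counts ran between 1749 and 2253 higher, 1408 and 1923 lower, 760 and 883 higher by 2-fold, and 254 and 319 lower by 2-fold. The age difference counted 186 to 373 genes higher at P60 (373 without cHET 3, against 247) and 199 to 314 lower. Signs changed as follows, and the cause was not tested. Hnrnpa1 was 0.24 in the authors' deposited test. Ddx3y ran between -0.13 and 0.0107 without 1 library and was 0.0107 without cHET 3 and control 1. Cxcl10 was -0.056 with a pseudocount of 5, -0.16 after quantile normalization and -0.53 to 0.99 without 1 library. Ifit1 was 0.17 without cHET 3 and control 1 and -0.76 to 0.17 without 1 library. Prx ran between -2.07 and 0.0505 without 1 library. Quantile normalization moved the median of all genes to -0.05. No paired analysis was possible because the labels give mouse identities and no replicate numbers shared between genotypes. Read depth is not given, so precision rests on 3 mice per group.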
